A study of Mus musculus with 24 samples.

Results

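The classical MHC class I pathway was followed through 9 genes in splenic dendritic cells (DCs) of BALB/c pups. The genes were the heavy chains H2-K1 and H2-D1, the light chain B2m, the peptide transporter subunits Tap1 and Tap2, the peptide-loading chaperone Tapbp (tapasin), and the immunoproteasome subunits Psmb8, Psmb9 and Psmb10. Members were all probe sets whose only gene symbol in the platform annotation was 1 of these 9, which gave 25 of 22626 probe sets, for 9 of 12393 named genes. H2-K1 had 4 probe sets, H2-D1 had 9, Tap1 had 4, B2m and Tapbp had 2 each, and the other genes had 1. A further 3 probe sets named a member together with other genes and were left out. Where a gene is given by a single value, the value is from its probe set with the highest mean signal.

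RNA was measured on 24 Affymetrix mouse expression arrays of CD11c-positive splenic cells, which were retained on magnetic beads. At-risk pups were offspring of mothers that had been injected with ovalbumin (OVA) and alum as neonates, exposed to OVA aerosols after weaning and mated with normal males. Normal pups were born to control mothers. Stimulated pups had themselves been injected once into the peritoneum with OVA (5 µg) and alum (1 mg), at day 3 by the labels, and naïve pups had received no allergen. The words after allergen below mean after this injection, in which the effects of OVA and of alum cannot be told apart. Arrays AF76 to AF91 are called Set 1 and arrays AF118 to AF127 Set 2. In Set 1, naïve DCs were on 3 arrays from normal and 4 from at-risk pups, and stimulated DCs on 4 arrays from each. In Set 2, stimulated DCs were on 4 arrays from normal and 5 from at-risk pups, there were no naïve arrays, and the RNA had been amplified by another procedure. The study calls the arrays of a group biological replicates, but the sources do not say how many pups went into each, so p-values measure only the spread between these arrays.

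MHC class I molecules display peptides from proteins made inside the cell to CD8 T cells. The immunoproteasome, in which Psmb8, Psmb9 and Psmb10 take the places of the constitutive catalytic subunits, cuts such proteins into peptides. The Tap1-Tap2 transporter carries the peptides into the endoplasmic reticulum, where tapasin helps to load them onto a heavy chain paired with beta-2 microglobulin. Interferons raise the transcription of all these genes, and DCs also use the pathway to display captured antigen by cross-presentation.

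Promoter sequences are shown because several members share their regulatory letters, so that it can be asked of the arrays whether members with a common start region varied together. RefSeq windows (GRCm38.p6, from the C57BL/6J strain, which has another MHC haplotype than BALB/c) were matched by symbol for 8 of the 9 genes, all but Tap2. Searched on both strands over the 250 bases before each start were the interferon-response letters GAANNGAAA, an NF-kB motif of GGG and CC with any 5 bases between them, and the letters TGACG. The first and the last of these were chosen after the windows were seen. In their place had been a longer interferon-response motif (GAAA, any 2 bases, GAAA), which of the members B2m alone held, and TGACGT, which no member held (6.47% of all windows). Of 32851 RefSeq windows of this length, 6.31% held GAANNGAAA, 45.8% the NF-kB motif and 17.8% TGACG. The first line is the stretch between the start of Psmb9, on the minus strand, and that of Tap1, on the plus strand. The other lines each end at a start of the gene (H2-K1 has 2 in RefSeq, of which 1 is shown). Capitals mark all matches to the searched motifs and, in B2m, to the longer interferon-response motif, with overlapping ones run together.
Tap1 and Psmb9, chr17:34187331-34187555, plus strand: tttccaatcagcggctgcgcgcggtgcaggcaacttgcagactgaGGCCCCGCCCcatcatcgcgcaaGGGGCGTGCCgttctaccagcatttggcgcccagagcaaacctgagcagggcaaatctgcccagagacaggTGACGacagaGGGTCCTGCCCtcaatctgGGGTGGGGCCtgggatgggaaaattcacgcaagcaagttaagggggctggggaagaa
H2-K1, chr17:34000348-34000597, minus strand: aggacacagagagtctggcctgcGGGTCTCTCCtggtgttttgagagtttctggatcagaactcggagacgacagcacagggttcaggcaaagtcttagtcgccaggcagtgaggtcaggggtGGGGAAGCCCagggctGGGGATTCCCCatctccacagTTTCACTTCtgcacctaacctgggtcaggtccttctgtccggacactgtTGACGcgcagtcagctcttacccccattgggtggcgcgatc
H2-D1, chr17:35262844-35263093, plus strand: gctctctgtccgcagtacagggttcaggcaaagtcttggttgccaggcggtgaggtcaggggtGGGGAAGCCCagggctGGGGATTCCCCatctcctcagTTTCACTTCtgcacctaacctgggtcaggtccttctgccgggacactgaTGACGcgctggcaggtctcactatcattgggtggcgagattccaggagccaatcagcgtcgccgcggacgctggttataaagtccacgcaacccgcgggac
B2m, chr2:122147437-122147686, plus strand: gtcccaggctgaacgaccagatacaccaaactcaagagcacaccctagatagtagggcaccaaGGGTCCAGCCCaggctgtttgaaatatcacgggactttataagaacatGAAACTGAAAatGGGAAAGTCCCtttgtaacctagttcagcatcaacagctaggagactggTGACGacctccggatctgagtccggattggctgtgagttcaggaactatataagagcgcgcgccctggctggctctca
Tap1 and Psmb9 thus start 225 bases apart in opposite directions, and their shared stretch held the NF-kB motif and TGACG but not GAANNGAAA. The H2-K1 and H2-D1 windows overlapped over 190 bases of an alignment without gaps, of which 166 (87.4%) were identical, and both held all 3 motifs. B2m held the longer interferon-response form, which was in 2.98% of all windows, but not GAANNGAAA. Of the members not printed, Psmb8, Psmb10 and Tapbp held none of the 3 motifs. Psmb8 held the letters TTCNNNGAA of a STAT site, which were in 7.02% of all windows. A match to such letters is a description of the sequence and not a bound site.

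The cells carried the DC markers of their label. The mean log2 signal of 10 DC markers (among them Itgax, which encodes CD11c, Flt3, Zbtb46 and MHC class II genes) lay between 12.6 and 12.8 in every group. Of these 10 DC markers, 2 rose after allergen in normal pups (highest log2 fold change 0.80) and 0 in at-risk pups of Set 1. Markers of other cells also moved with the groups. All 6 platelet markers and all 6 erythroid markers rose after allergen in both normal and at-risk pups of Set 1, while 7 of 7 and 6 of 7 T cell markers and 4 of 6 NK cell markers fell. The mean platelet marker signal was 6.16 in both naïve groups, 9.89 and 10.2 in stimulated normal and at-risk pups of Set 1, and 6.75 and 8.93 in those of Set 2. In bulk RNA fewer cells of a type and less RNA per cell cannot be told apart. The naïve normal array AF79 stood apart, being the lowest of Set 1 for 22.3% of all probe sets and the highest for 22.7%, as it was for 6 and 5 of the 25 member probe sets. In Set 2 the arrays AF118 (19% lowest and 17% highest) and AF123 (26.8% and 21.4%) stood apart in the same way.

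The heavy chains H2-K1 and H2-D1 form the peptide groove of the class I molecule. H2-K1 log2 signals were 13.18, 13.19 and 13.14 in naïve normal and 13.26, 13.26, 13.24 and 13.14 in naïve at-risk pups. After allergen in Set 1 they were 13.05, 13.21, 13.11 and 13.12 in normal and 13.11, 13.06, 13.10 and 13.13 in at-risk pups. The 4 stimulated at-risk arrays all lay below the 4 naïve at-risk arrays, the nearest being at 13.13 and 13.14, and the normal groups overlapped. Of all probe sets 8.84% were likewise lower in every stimulated at-risk array. By the limma test described below, the H2-K1 change after allergen differed between at-risk and normal pups by -0.08 (SE 0.08, adjusted p = 0.779). H2-D1 was at 13.50, 13.54 and 13.77 in naïve normal pups, the highest being AF79, and at 13.60, 13.55, 13.53 and 13.52 in naïve at-risk pups. It was at 13.38, 13.44, 13.41 and 13.38 in stimulated normal and at 13.34, 13.39, 13.43 and 13.49 in stimulated at-risk pups of Set 1. By this brightest H2-D1 probe set, every stimulated array of Set 1 was thus lower than every naïve array, within normal and within at-risk pups. This held for 10.3% of all probe sets in normal and 8.84% in at-risk pups. Of the other H2-D1 probe sets some were likewise lower and some overlapped. The probe set 1426324_at overlapped in both normal (limma log2 fold change -0.07, SE 0.08, adjusted p = 0.575) and at-risk pups (-0.19, SE 0.07, adjusted p = 0.125). In Set 2, H2-K1 was at 13.10 ± 0.03 (SD, n = 4) in normal and 13.06 ± 0.05 (SD, n = 5) in at-risk pups, and H2-D1 at 13.60 ± 0.06 and 13.68 ± 0.06.

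B2m is the light chain shared by class I molecules. Its mean log2 signal was 13.68 ± 0.03 (SD, n = 3) in naïve normal, 13.67 ± 0.05 (n = 4) in naïve at-risk, 13.66 ± 0.02 (n = 4) in stimulated normal and 13.63 ± 0.03 (n = 4) in stimulated at-risk pups of Set 1. In Set 2 it was 13.67 ± 0.04 (SD, n = 4) and 13.58 ± 0.07 (n = 5). These Set 1 means fell in the order given and the ranges of neighbours overlapped. In Set 2 the arrays of both groups overlapped too, and the difference was -0.09 (SE 0.06, adjusted p = 0.401).

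**Figure D1:**
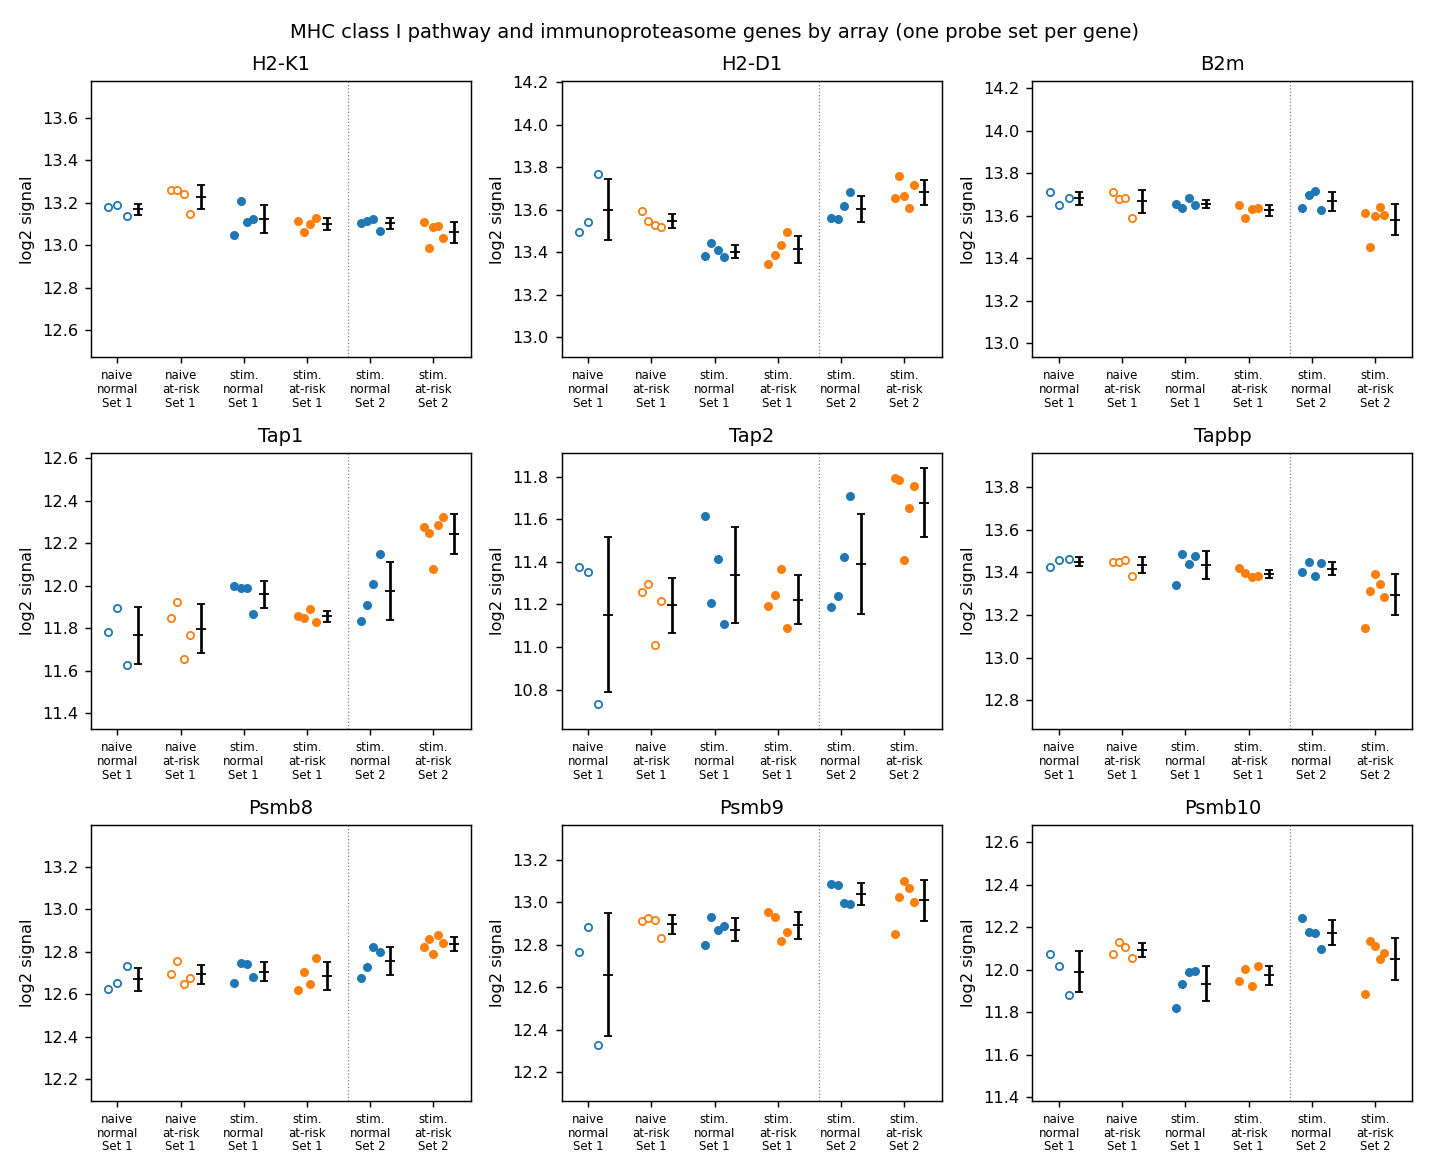
Log2 signal of each array (points) for the 9 genes, 1 probe set per gene, in the 6 groups. Open points are naïve, filled points stimulated, blue normal and orange at-risk pups. Black bars are the mean ± SD of a group, the dotted line separates the sets, which by the study's methods were preprocessed separately, and each panel spans 1.3 log2 units. H2-D1 was lower in the stimulated than in the naïve groups of Set 1, and Tap1 was higher in at-risk than in normal pups of Set 2 on 4 of 5 arrays.

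Tap1 and Tap2 pair to form the peptide transporter. Tap1 was at 11.78, 11.89 and 11.62 in naïve normal and at 11.85, 11.92, 11.65 and 11.77 in naïve at-risk pups. In stimulated pups of Set 1 it was at 12.00, 11.99, 11.99 and 11.87 in normal and 11.86, 11.85, 11.89 and 11.83 in at-risk pups. In Set 2 it was at 11.83, 11.91, 12.01 and 12.15 in normal and at 12.28, 12.25, 12.08, 12.29 and 12.32 in at-risk pups. At-risk arrays were thus mostly below normal arrays after allergen in Set 1 and mostly above them in Set 2, with 1 normal array overlapping in each case. Tap2 was the most variable of the 9 genes, with an SD within groups of 0.208 over all 24 arrays, at the 90th percentile of the 2435 probe sets of like signal. It was at 11.62, 11.21, 11.42 and 11.11 in stimulated normal and 11.19, 11.24, 11.37 and 11.09 in stimulated at-risk pups of Set 1, and its naïve normal values of 11.38, 11.35 and 10.73 had AF79 as the lowest. In Set 2 it was at 11.19, 11.24, 11.42 and 11.71 in normal and 11.80, 11.78, 11.41, 11.65 and 11.76 in at-risk pups, again with most at-risk arrays above the normal ones. Tapbp had group means between 13.39 and 13.45 in Set 1, and means of 13.42 ± 0.03 (SD, n = 4) in normal and 13.29 ± 0.10 (SD, n = 5) in at-risk pups of Set 2. Its second, dimmer probe set, 1450378_at, varied more, at 8.04, 8.22 and 7.55 in naïve normal pups, the lowest being AF79, and at 8.45, 8.35, 8.45 and 8.04 in naïve at-risk pups.

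Of the immunoproteasome subunits, Psmb8 was steady, with group means between 12.67 and 12.71 in Set 1 and SDs within groups of 0.05 to 0.07. Psmb9 was at 12.76, 12.88 and 12.33 in naïve normal pups and at 12.91, 12.93, 12.91 and 12.83 in naïve at-risk pups. The low naïve normal value was again AF79, and the remaining values of both groups overlapped. Psmb9 was at 12.87 ± 0.05 (SD, n = 4) in stimulated normal and 12.89 ± 0.06 (SD, n = 4) in stimulated at-risk pups of Set 1. Psmb10 was at 12.07, 12.13, 12.11 and 12.06 in naïve at-risk pups and at 11.95, 12.00, 11.92 and 12.02 in stimulated at-risk pups. These groups did not overlap, and 8.84% of all probe sets were likewise lower in every stimulated at-risk array. In Set 2, Psmb8 was at 12.76 ± 0.07 in normal (SD, n = 4) and 12.84 ± 0.03 in at-risk pups (SD, n = 5), Psmb9 at 13.04 ± 0.05 and 13.01 ± 0.10, and Psmb10 at 12.17 ± 0.06 and 12.05 ± 0.10. Levels of different probe sets were not compared with each other, since probes differ in how brightly they bind.

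Among naïve pups, at-risk and normal DCs were compared without allergen given to the pups. Maternal asthma and the mothers' treatment with OVA and alum cannot be told apart here. A probe set was called where limma's p, adjusted over all probe sets by the Benjamini-Hochberg method, was at most 0.05 and the change was at least 25% of the lower level. No member was called, whereas 77 of all 22626 probe sets (0.34%) were, and 3 member probe sets had an unadjusted p under 0.05, against 15.8% of all probe sets. The 9 genes had log2 fold changes from -0.05 (H2-D1) to 0.24 (Psmb9), with a median of 0.03 against 0.00 over all probe sets. The 95% interval of 7 of the 9 genes lay inside a 25% change in either direction, which is 0.322 on the log2 scale, and those of Psmb9 and Tap2 did not. Psmb9 was higher by 0.24 (SE 0.10, adjusted p = 0.275), and without AF79 this value was 0.07. Over all 25 probe sets the values ran from -0.20 to 0.38, and the highest was the second Tapbp probe set, 1450378_at (0.38, SE 0.14, 95% interval 0.08 to 0.69, adjusted p = 0.231), against -0.01 for the brighter Tapbp probe set. It was 0.19 without AF79 and 0.52 (adjusted p = 0.0748) without AF77. Of the 25 probe sets, 1 Tap1 probe set was higher in every at-risk than in every normal array (5.74% of all probe sets were) and another Tap1 probe set was lower in every one (5.39% were). These 2 probe sets had low signals, with means of 6.51 and 3.39, and pointed in opposite directions.

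Among stimulated pups, at-risk and normal DCs were compared over 17 arrays with set as a term. No member was called, against 391 (1.73%) of all probe sets, and 1 member probe set against 17% of all had an unadjusted p under 0.05. The log2 fold changes of the 9 genes lay between -0.08 (Tapbp) and 0.10 (Tap2), and all 9 intervals lay inside a 25% change. Over all 25 probe sets the values ran from -0.19 to 0.10. Tapbp, whose product bridges the transporter and the heavy chain, was lower in at-risk pups by 0.08 (SE 0.04, adjusted p = 0.284). The 6 platelet markers were called higher in at-risk pups in this comparison, and they were called in Set 2 alone and not in Set 1 alone. Also called were 4 of 6 erythroid, 3 of 6 endothelial, 2 of 5 stromal, 2 of 7 neutrophil and 1 of 5 B cell markers as higher, and 2 of 5 plasmacytoid DC, 1 of 7 T cell and 1 of 6 NK cell markers as lower. Their part in the member values was not tested.

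Between the sets, the values of Tap2 and of the brightest Tap1 probe set had opposite signs. In Set 1 the at-risk minus normal value was -0.10 (SE 0.05, adjusted p = 0.552) for Tap1 and -0.11 (SE 0.11, adjusted p = 0.786) for Tap2. In Set 2 it was 0.27 (SE 0.08, adjusted p = 0.093) for Tap1 and 0.29 (SE 0.12, adjusted p = 0.201) for Tap2. The difference between the sets, tested as an interaction, was 0.37 for Tap1 (SE 0.10, 95% interval 0.17 to 0.57, adjusted p = 0.0573) and 0.40 for Tap2 (SE 0.17, 95% interval 0.04 to 0.77, adjusted p = 0.263). Neither passed the threshold, which 404 (1.79%) of all probe sets did, and 0 member probe sets did. At an unadjusted p under 0.05 there were 5 members, against 16.3% of all probe sets. The largest of the 25 values was that of the second Tapbp probe set, 1450378_at, at -0.55 (SE 0.23, adjusted p = 0.257), which was at 0.23 in Set 1 and -0.31 in Set 2. The dimmer Tap1 probe set 1448177_at was negative in both sets, at -0.12 (SE 0.11) in Set 1 and -0.25 (SE 0.17) in Set 2. Its difference between the sets was -0.13 (SE 0.22, adjusted p = 0.786). The remaining Tap1 probe sets, with mean signals of 3.71 and 3.39, had differences of 0.20 and -0.08. Without the normal array AF121 or the at-risk array AF125, the difference of the brightest Tap1 probe set was 0.43 and 0.41 and was called (adjusted p = 0.0208 and 0.0172). It was also called under 5 other settings. Without the normal array AF118 it was 0.33 (adjusted p = 0.128), and with any 1 array left out its adjusted p was at most 0.137. Sets and the RNA amplification of Set 2 cannot be told apart. Within Set 2, 6 of 7 T cell, 5 of 6 NK cell, 3 of 7 macrophage and 3 of 5 plasmacytoid DC markers were also called lower in at-risk pups. Called higher there were 6 of 6 platelet, 4 of 5 stromal, 3 of 6 endothelial, 2 of 6 erythroid and 2 of 5 B cell markers. The difference between the sets was called above 0 for 4 of 6 platelet markers. It was called below 0 for 4 of 7 macrophage, 2 of 6 NK cell, 1 of 5 plasmacytoid DC and 1 of 4 plasma cell markers. No T cell or stromal marker was called for it. The part of these markers in the Tap1 values was not tested.

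Non-overlap of the stimulated groups was counted in each set. In Set 1, 2 of the 25 probe sets were lower in every at-risk array (3.47% of all probe sets were) and 0 were higher (2.76%). In Set 2, 1 was lower (4.47%) and 0 higher (5.67%). The 2 in Set 1 were the H2-K1 probe set 1450534_x_at (log2 fold change -0.27, SE 0.07, adjusted p = 0.218) and the H2-D1 probe set 1450170_x_at (-0.25, SE 0.07, adjusted p = 0.268). Their values in Set 2 were 0.05 and 0.03. The 1 in Set 2 was the second B2m probe set, at 13.19, 13.22, 13.20 and 13.21 in normal and 12.97, 13.09, 13.13, 13.14 and 13.10 in at-risk pups (log2 fold change -0.12, SE 0.06, adjusted p = 0.246).

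**Figure D2:**
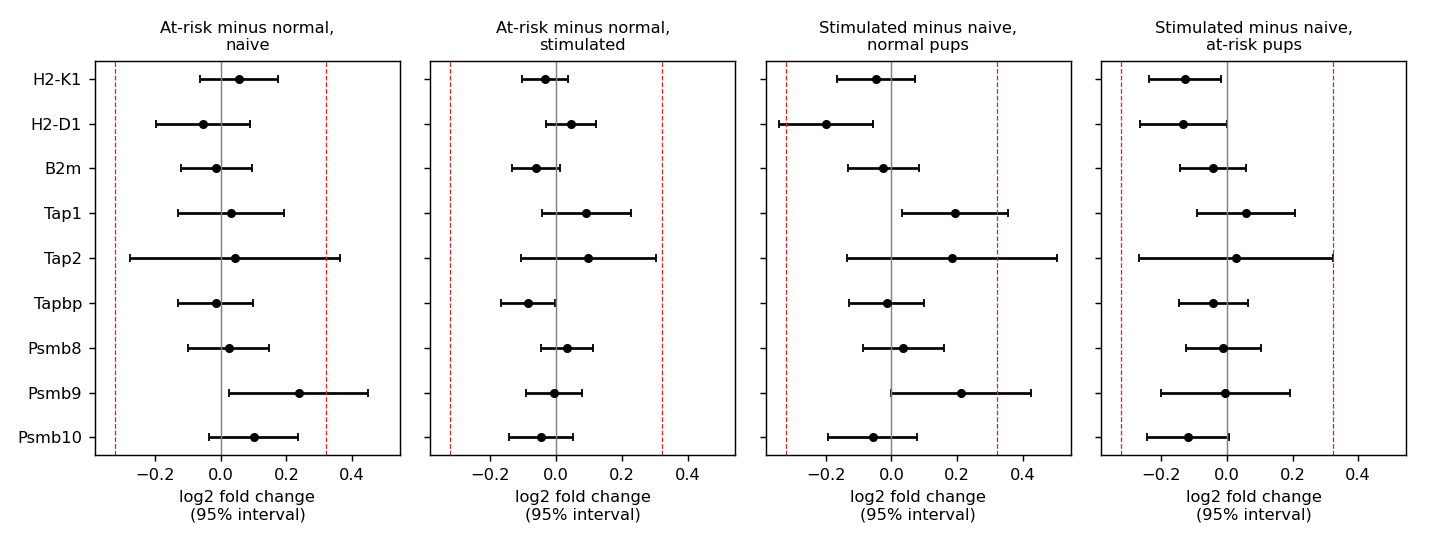
Log2 fold change of the 9 genes in the 4 comparisons, with 95% intervals from limma. Dashed red lines mark a change of 25% in either direction, and in the stimulated comparison all 9 intervals lie between them.

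After allergen most heavy chain probe sets had lower signals. In normal pups 12 of the 13 heavy chain probe sets and in at-risk pups all 13 had a lower mean in stimulated than in naïve DCs of Set 1, where 49.1% and 54.7% of all probe sets were lower. Their median log2 fold change was -0.07 in normal pups (0.00 over all probe sets) and -0.14 in at-risk pups (-0.01 over all). With each array left out in turn, 10 to 13 of the 13 were lower in normal pups, the fewest without AF76, and 12 or 13 in at-risk pups. These 13 probe sets are no independent measures, because H2-K1, H2-D1 and their relatives are near-identical copies, most of these probe sets carry the suffix of a design that can bind several of them, and BALB/c alleles can differ from the probes. Which heavy chain gene a probe set read was therefore uncertain.

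A single member probe set was called after allergen. It was the H2-D1 probe set 1450170_x_at in at-risk pups, at 8.83, 8.89, 9.07 and 8.73 in naïve and 8.51, 8.48, 8.57 and 8.59 in stimulated DCs. The groups did not overlap (8.84% of all probe sets were lower in this way), and the log2 fold change was -0.35 (SE 0.08, 1.27-fold lower, adjusted p = 0.0151). The call was lost without the naïve array AF82 (-0.28, adjusted p = 0.0542) or the stimulated array AF89 (-0.33, adjusted p = 0.0508). In normal pups the same probe set was at 9.04, 8.82 and 9.04 before and 8.72, 8.78, 8.67 and 8.97 after allergen, which overlap (-0.18, SE 0.09, adjusted p = 0.22). Against this 1 lower call of 25, 3.46% of all probe sets were called lower and 7.88% in either direction in at-risk pups, and 0 of 25 against 11.5% were called in normal pups. At an unadjusted p under 0.05 there were 8 members in at-risk pups (20.5% of all probe sets) and 4 in normal pups (27.8%).

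Other heavy chain probe sets passed the adjusted p but not the 25% change, so that 2 of 25 members passed the adjusted p in each comparison, against 14.2% of all probe sets in normal and 9.6% in at-risk pups. In normal pups these were the H2-D1 probe sets 1425614_x_at (-0.23, SE 0.06, adjusted p = 0.0193) and 1427651_x_at (-0.21, SE 0.06, adjusted p = 0.0347). Without AF79 these values were -0.16 (adjusted p = 0.0497) and -0.14 (adjusted p = 0.0968). In at-risk pups it was the H2-K1 probe set 1450534_x_at (-0.27, SE 0.08, adjusted p = 0.0414), whose mean signal of 5.17 was close to the lower quartile of the arrays, 5.00 to 5.09. Its value was -0.21 (adjusted p = 0.131) without AF81. The brightest H2-D1 probe set had a log2 fold change of -0.20 in normal pups (SE 0.07, adjusted p = 0.0631) and of -0.13 in at-risk pups (SE 0.06, adjusted p = 0.244). The value in normal pups was -0.12 without AF79 (adjusted p = 0.202) and -0.25 without AF76 (adjusted p = 0.0347). For H2-K1 in normal pups, the probe set 1427746_x_at had a value of -0.07 (SE 0.12, adjusted p = 0.75). It was -0.26 without AF79 (adjusted p = 0.0329) and 0.03 without AF77 (adjusted p = 0.892). The probe set 1425336_x_at, at -0.04, was at -0.18 without AF79 (adjusted p = 0.0989) and at 0.04 without AF76 (adjusted p = 0.813). The brightest H2-K1 probe set was lower by 0.05 in normal pups (SE 0.06, adjusted p = 0.636) and by 0.13 in at-risk pups (SE 0.05, adjusted p = 0.167). The test of the difference between these allergen effects, which is the same as that between the maternal effects of stimulated and naïve pups, called 0 members and 11 (0.0486%) of all probe sets, and 1 member probe set against 8.41% of all had an unadjusted p under 0.05. Among the 9 genes that difference lay between -0.22 (Psmb9) and 0.07 (H2-D1), and that of Psmb9 was -0.05 without AF79 and -0.33 without AF77. Over all 25 probe sets it ran from -0.36 to 0.26, both ends being dim Tap1 probe sets, with a smallest adjusted p of 0.547.

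**Figure D3:**
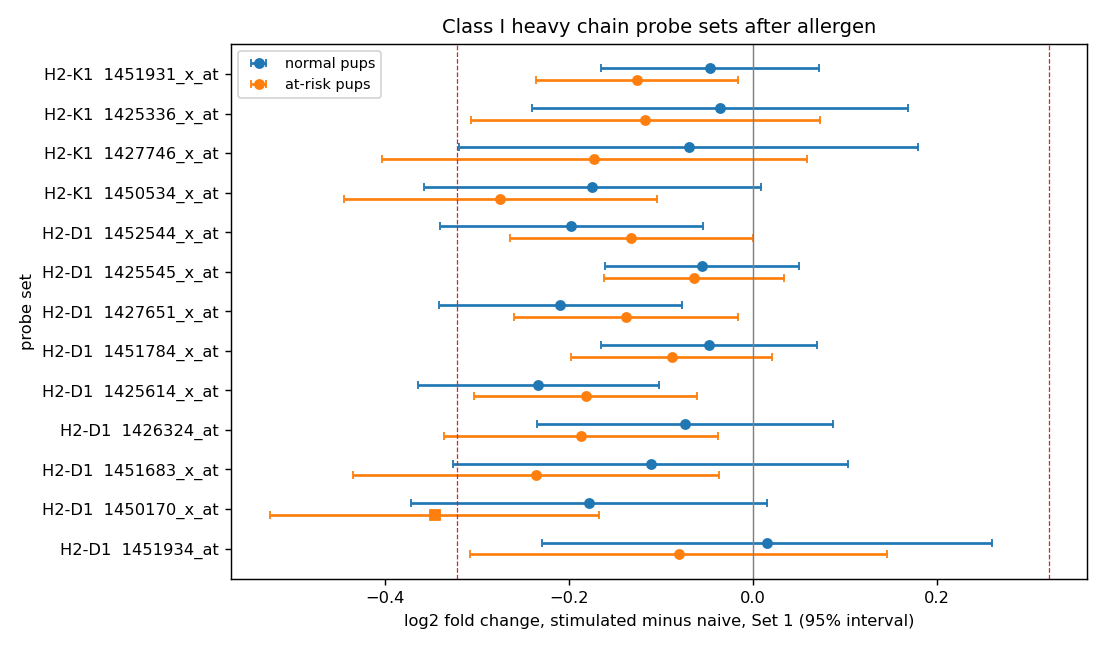
Log2 fold change of the 13 heavy chain probe sets after allergen in Set 1 with 95% intervals, for normal (blue) and at-risk (orange) pups. Points left of 0 were lower in stimulated DCs, dashed red lines mark a change of 25%, and the square is the 1 called probe set, at -0.35.

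The rest of the pathway was not called in either allergen comparison. B2m was lower by 0.02 in normal (SE 0.05, adjusted p = 0.802) and by 0.04 in at-risk pups (SE 0.05, adjusted p = 0.712), and both intervals lay inside a 25% change. Tap1 was higher by 0.19 in normal pups (SE 0.08, adjusted p = 0.106) and by 0.06 in at-risk pups (SE 0.07, adjusted p = 0.736). The Tap1 value in normal pups was 0.12 without AF79 (adjusted p = 0.324) and 0.26 without AF77 (adjusted p = 0.0462). Psmb9 was higher by 0.21 in normal pups (SE 0.10, adjusted p = 0.18), a value that rested on AF79 and AF77, since it was 0.05 without AF79 and 0.32 with a call (adjusted p = 0.0379) without AF77. In at-risk pups Psmb9 differed by less than 0.01 (SE 0.09), and Psmb10 was lower by 0.12 (SE 0.06, adjusted p = 0.279). Intervals stayed inside a 25% change for 5 of 9 genes in normal pups (not H2-D1, Tap1, Tap2 and Psmb9) and for 8 of 9 in at-risk pups (not Tap2). Over all 25 probe sets the log2 fold changes ran from -0.23 to 0.23 in normal and from -0.35 to 0.18 in at-risk pups. Among all 25 probe sets, 5 were lower in every stimulated normal array (10.3% of all probe sets were) and 0 higher (11.6%), while in at-risk pups 11 were lower (8.84%) and 0 higher (8.89%). The 11 were 9 heavy chain probe sets, 1 of B2m and that of Psmb10. Beside the T cell and NK cell markers, 4 of 7 macrophage and 3 of 5 plasmacytoid DC markers fell in normal pups and 3 of 7 and 2 of 5 in at-risk pups. Of 7 neutrophil markers 4 fell and 1 rose in normal pups, and 2 rose in at-risk pups. These cells also express class I genes. In the same comparisons all 6 platelet markers (median log2 fold change 3.69 in normal and 4.02 in at-risk pups) and all 6 erythroid markers rose. Of 6 endothelial markers 1 rose and 1 fell in normal pups, and 3 rose and 1 fell in at-risk pups. In normal pups 1 of 5 stromal and 1 of 4 plasma cell markers also fell. The part of cell make-up in the member values was not tested.

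Tap1 and Tap2 varied together from array to array. After each group's mean was taken off, their log2 signals correlated over the 15 Set 1 arrays with r = 0.788 (two-sided exact permutation within groups, p = 0.000241, adjusted p = 0.0174 over 72 pairs and sets) and rho = 0.775 (exact permutation p = 0.000699, adjusted p = 0.0503). Without the 2 arrays farthest out, AF79 and AF82, r was 0.64. Over the 9 Set 2 arrays r was 0.942 (exact permutation p = 0.00833, adjusted p = 0.12) and rho 0.733 (exact permutation p = 0.0503, adjusted p = 0.348), and r was 0.876 without AF118 and AF125. Tap1 and Psmb9, which start from the common stretch printed above, had r = 0.571 in Set 1 (exact permutation p = 0.172, adjusted p = 0.493) and r = -0.58 in Set 2 (exact permutation p = 0.0969, adjusted p = 0.41). Without the 2 arrays farthest out these were 0.43 and -0.31, and the Set 1 value was 0.35 without AF79 alone. H2-K1 and H2-D1, whose windows were 87.4% identical where aligned, had r = 0.0766 in Set 1 (exact permutation p = 0.723, adjusted p = 0.892). In Set 2 their r was -0.797 (exact permutation p = 0.0128, adjusted p = 0.15), and -0.474 without the 2 arrays farthest out. No pair of members other than Tap1 and Tap2 passed the adjustment in either set.

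**Figure D4:**
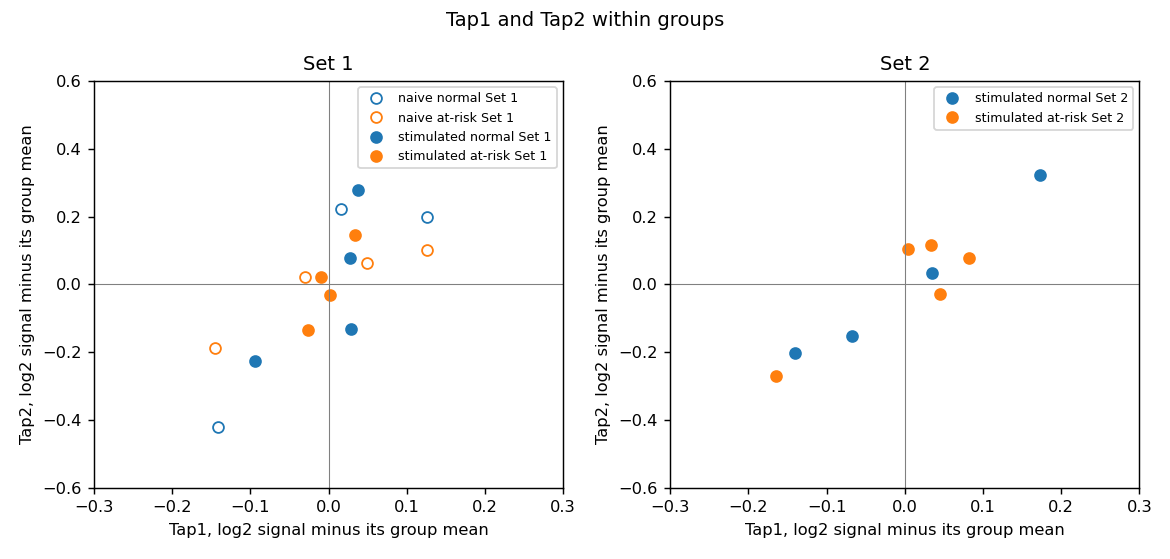
Tap1 against Tap2 log2 signal, each as the difference from the mean of its group, for the 15 Set 1 arrays (left) and the 9 Set 2 arrays (right). Points run from lower left to upper right in both sets (r = 0.788 and 0.942), and the lowest Set 1 point for Tap2 is AF79.

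The 9 genes did not follow a common course. The correlation of each with the mean of all 9, of which it is itself a part, ran from -0.23 (H2-D1) to 0.71 (Psmb9) in Set 1 and from -0.63 (H2-K1) to 0.88 (Psmb8) in Set 2. As a description, over 15 and 9 arrays, the genes whose pattern was most like that mean were Usp20 (r = 0.823 and 0.839), Lmbr1l (0.82 and 0.892), Tcf25 (0.809 and 0.843), Sec24b (0.831 and 0.791), Xylt2 (0.778 and 0.827) and Hivep3 (0.84 and 0.776).

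Genes that work beside the members were taken next. Of 16 listed class I partners (the proteasome activator Psme1, the trimming enzyme Erap1, the chaperones Canx, Calr and Pdia3, and others) 13 were measured and 0 were called in any comparison. The lowest and highest after allergen in normal pups were Erap1 (-0.30, SE 0.10, adjusted p = 0.0715) and Pdia3 (0.32, SE 0.18, adjusted p = 0.274), and the median was -0.02. None of the 14 measured subunits of the constitutive 20S core and none of the 17 measured subunits of the 19S cap was called in any comparison either. After allergen in normal pups their median log2 fold changes were 0.12 and 0.08, with Psmb6 at 0.27 (SE 0.10, adjusted p = 0.1) and Psmd7 at 0.44 (SE 0.17, adjusted p = 0.102) as the highest, and in at-risk pups 0.00 and 0.08. Of 11 listed MHC class II genes 9 were measured and 0 called, with medians of 0.03 and 0.01 after allergen. Of 18 other class I genes 7 were measured, and Cd1d1, which presents lipids, rose after allergen in normal pups (0.57, SE 0.16, adjusted p = 0.0237) but had a value of 0.04 in at-risk pups (SE 0.14, adjusted p = 0.931). The difference between these was -0.53 (SE 0.21, adjusted p = 0.514).

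Of 21 listed regulators of class I genes 18 were measured, and 2 interferon genes were called. Ifng, the interferon of NK and T cells that induces the immunoproteasome, fell after allergen by 1.94 on the log2 scale in normal pups (SE 0.27, adjusted p = 0.000222) and by 1.69 in at-risk pups (SE 0.25, adjusted p = 0.000404). It was also lower in stimulated at-risk than in stimulated normal pups, by 0.75 (SE 0.18, adjusted p = 0.0376). Of the 18 measured regulators, 0 were called in Set 1 alone (lowest value -0.40) and 1 was called lower in Set 2 alone (lowest value -1.06). Ifnb1, a type I interferon with a dim mean log2 signal of 4.72, fell after allergen by 1.89 in normal (SE 0.14, adjusted p = 5.87e-07) and by 0.88 in at-risk pups (SE 0.13, adjusted p = 0.000262), and was lower by 1.05 in naïve at-risk than in naïve normal pups (SE 0.14, adjusted p = 0.00368). The test of the difference between the allergen effects of at-risk and normal pups called 0 of the 18 measured regulators, with values from -0.17 to 1. The fall of Ifng stood beside the fall of the NK and T cell markers given above. Irf1, a transcription factor of the interferon response named here after its values were seen, passed the adjusted p but not the 25% change in normal pups (-0.27, SE 0.06, adjusted p = 0.00482). The remaining 16 measured regulators, receptors and kinases were not called in any of the 4 comparisons.

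**Figure D5:**
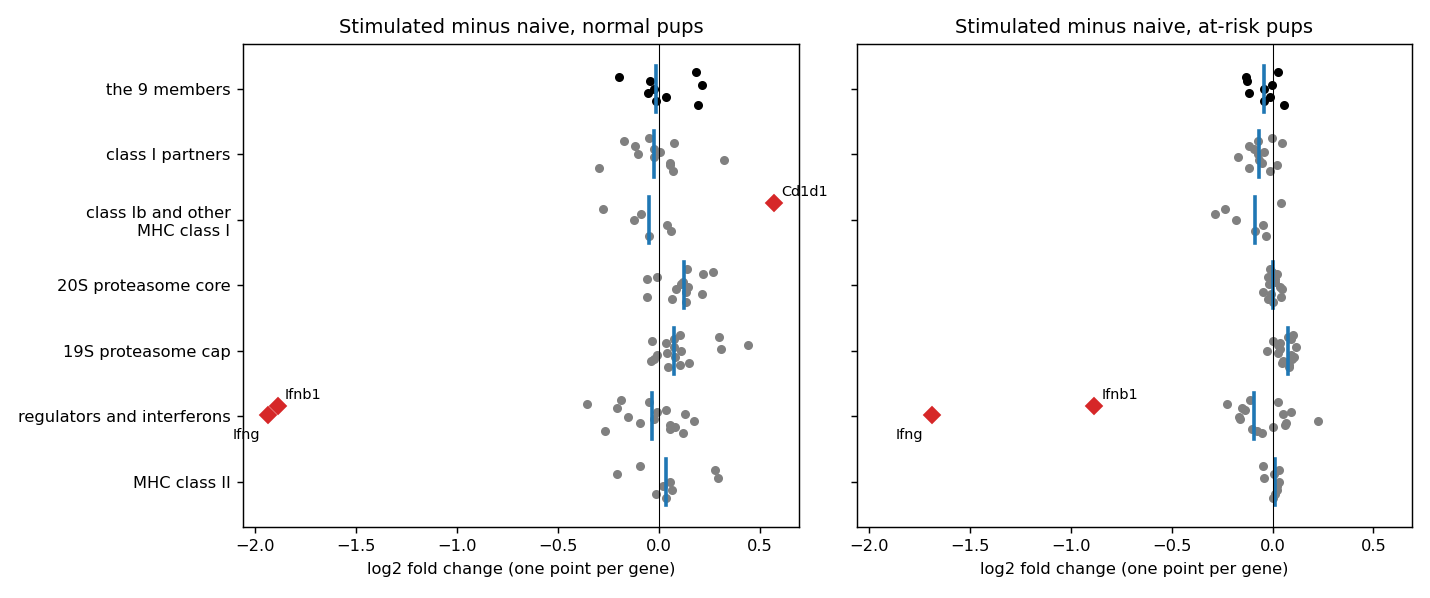
Log2 fold change after allergen in Set 1 for the 9 members (black), and for 6 lists of related genes (grey), 1 point per gene, in normal (left) and at-risk (right) pups. Blue bars are medians and red diamonds called genes. The members and the proteasome lists lie near 0, and Ifng and Ifnb1 lie far to the left.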

How the data were processed

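Gene expression was measured on 24 Affymetrix Mouse430A 2.0 arrays of splenic CD11c-positive DCs in 6 groups. By the study's methods the authors preprocessed the sets separately with quantile normalization and median polish (RMA in the submitters' processing notes, with no version) and left out 1 array of each set. They deposited a linear intensity for each of 22690 Affymetrix probe sets. The methods name a RefSeq-based probe set definition instead, so the deposited values may come from another summarization than the one described. After 64 control probe sets were removed, log2 of the deposited intensity was taken without a pseudocount. No column was left without a sample (0 columns) and none was identical to another. Symbols came from the platform annotation, which gave 1 symbol to 20380 probe sets, several to 691 and none to 1555.

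Groups and sets came from the titles. The naïve, allergen and difference comparisons used the 15 Set 1 arrays with 1 mean per group, the stimulated comparison 17 arrays with set as a term, and the difference between sets its interaction. Models were fitted over all 22626 probe sets with limma 3.58.1 in R 4.3.3 (lmFit, eBayes), with calls at a change of 25% or more (0.322 on the log2 scale) and an adjusted p (Benjamini-Hochberg) not above 0.05, and were tested on simulated data. The number of arrays limits the precision. Python 3.11.15, numpy 2.4.6, pandas 2.3.3, Biopython 1.88 and matplotlib 3.10.9 were used for the rest.

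By the rule for named genes all member probe sets were described: levels were given for 1 probe set of each gene, and for other probe sets where they were called, passed the adjusted p or were the extreme of a comparison, with the remainder given in counts and ranges. From other lists the called genes, or else the highest and lowest, were named. Members and lists were chosen with earlier results of these data known. Alternatives were other arrays in the fit, another normalization, median centring, a filter at the 40th percentile of signal, no fold threshold, trend and robust moderation, array weights, 1 probe set per gene, each set alone, set omitted or as a random block, and each array left out in turn. By the study's methods the injection was a day later than in the labels.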

Additional observations from a re-analysis of the deposited data

Results flagged for a closer look

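Of the 25 member probe sets in 5 groups of 4 or 5 arrays, 10 cases held an array far from the others of its group by Dixon's criterion, where chance gives about 1 in 20 of all cases. Values are log2 signals, each with the range of the rest of its group. For the heavy chains, H2-K1 was at 13.144 by probe set 1451931_x_at on the naïve at-risk array AF83 (others 13.242 to 13.259), at 13.214 by 1425336_x_at on the stimulated at-risk array AF90 (13.103 to 13.117) and at 12.57 by 1427746_x_at on the stimulated normal array AF121 (12.456 to 12.472). H2-D1 was at 12.952 by 1425614_x_at on the stimulated at-risk array AF91 (12.886 to 12.895), at 9.573 by 1451683_x_at on the stimulated normal array AF118 (9.796 to 9.838) and at 5.002 by 1451934_at on the stimulated at-risk array AF126 (4.633 to 4.66). B2m was at 13.453 on the stimulated at-risk array AF124 (13.6 to 13.643). Tap1 was at 11.866 on the stimulated normal array AF87 (11.987 to 11.997) and, by the dim probe set 1420274_at, at 3.364 on the naïve at-risk array AF81 (3.23 to 3.251). Tapbp was at 13.382 on the naïve at-risk array AF83 (13.449 to 13.458). AF83 was low for both H2-K1 and Tapbp, and no other array was far out for more than 1 probe set. AF79, in a group of 3, could not be examined this way.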

How the results depend on the processing

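No paired analysis was possible because the labels number each array once, so that no groups share replicate numbers. Of 1907 recomputed member values of 78 results, 1839 kept their direction and side of the threshold, 52 changed sign, none with a size above 0.168, 2 lost a call and 14 gained one. The cause of these changes was not tested unless the setting itself names it. For the share of all probe sets called, the naïve comparison gave 0.552% with all arrays, 0.053% with only the compared arrays and 0.194 to 1.19% with each array left out (lowest without AF83 and AF79, highest without AF77). The stimulated comparison gave 3.21% with all arrays, 2.82% with 1 probe set per gene, 0.119% in Set 1 alone, 4.62% in Set 2 alone, 0.535% with no term for set and 0.614 to 2.55% with an array left out (0.614% to 0.809% without any 1 normal array of Set 2). The difference of maternal effects gave 0.084% with median centring, 0.147% without dim probe sets, 0.0928% with trend and robust moderation, 0.186% with array weights, 0.169% with 1 probe set per gene and 0.00442 to 0.133% with an array left out (12 of the 15 arrays moved it by over 1.5 times). The difference between sets gave 2.89% without dim probe sets, 10.8% with array weights, 2.75% with 1 probe set per gene and 0.902 to 4.37% with an array left out (highest without AF125 and AF121).

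For members, 2 probe sets were called in each allergen comparison with no fold threshold, and in at-risk pups 0 with 1 probe set per gene, where the called H2-D1 probe set is not the brightest. With an array left out these counts were 0 to 1 in normal (1 without AF77, Psmb9) and 0 to 2 in at-risk pups, 0 without AF82 or AF89 and 2 without AF90. For the difference between sets, 1 (Tap1) was called with quantile normalization, without dim probe sets, with trend and robust moderation or with 1 probe set per gene, 4 with array weights and 0 to 1 with an array left out (1, Tap1, without AF121 or AF125).

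All sign changes were in values that were not called. In the naïve comparison array weights gave 0.0146 for H2-D1 (0.0186 by 1425614_x_at), -0.0349 for Tap1 and -0.134 for Tap2, and quantile normalization 0.00593 for B2m. With an array left out the ranges were -0.107 to 0.0289 for H2-D1, -0.0844 to 0.0291 by 1425614_x_at, -0.0294 to 0.0122 for B2m, -0.0398 to 0.0942 for Tap1, -0.168 to 0.154 for Tap2 and -0.0274 to 0.00279 for Tapbp. In the stimulated comparison Set 1 alone gave -0.104 for Tap1, -0.114 for Tap2, -0.0215 for Psmb8, 0.0201 for Psmb9, 0.0394 for Psmb10 and -0.0168 for H2-D1 by 1427651_x_at, and Set 2 alone 0.0258 for H2-D1 by 1450170_x_at and 0.0549 for H2-K1 by 1450534_x_at. Psmb9 was 0.0107 with quantile normalization, 0.00947 with array weights, 0.0018 with no term for set and -0.0184 to 0.0152 with an array left out. After allergen array weights gave -0.0481 for Tap2 and 0.00562 for Tapbp in normal pups, and quantile normalization 0.00589 for Psmb8 and 0.0208 for Psmb9 in at-risk pups. Ranges with an array left out were -0.027 to 0.295 for Tap2 and -0.0314 to 0.0169 for Tapbp in normal pups, and -0.0349 to 0.0724 for Tap2, -0.0381 to 0.0118 for Psmb8 and -0.0262 to 0.0196 for Psmb9 in at-risk pups. For the difference of maternal effects array weights gave -0.00579 for H2-D1, 0.0814 for Tap2 and -0.0141 by 1425614_x_at, and the ranges were -0.0172 to 0.119 for H2-D1, -0.267 to 0.0543 for Tap2, -0.0205 to 0.0931 by 1425614_x_at and -0.00163 to 0.113 by 1427651_x_at. For the difference between sets H2-K1 ranged from -0.0475 to 0.00536.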
